A study of Mus musculus with 4 samples.

Results

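The response of H3R26C mesenchymal progenitors to 5-Azacitidine (5-Aza) was described from 1 droplet-based single-cell RNA library of treated cells and 1 of cells given the vehicle (DMSO). Barcodes were kept with at least 5000 unique molecular identifiers (UMIs), at least 1500 genes and at most 20% mitochondrial UMIs. Barcodes in which Acta1, Actc1, Mylpf, Myl1, Tnnc2 and Tnnt3, 6 genes of the muscle contractile apparatus, made up 1% or more of the UMIs were then left out, so that the response of the non-muscle cells was read. This left 12176 cells, 4727 with DMSO and 7449 with 5-Aza, of the 21777 non-muscle cells and 39891 barcodes of the whole series.

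All libraries came from C3H 10T1/2, a mouse line of mesenchymal progenitors, transduced with a lentivirus that drives a tagged human histone H3.1 from the EF1 promoter and selected with puromycin. The transgene carried either the wild-type sequence (H3WT) or a cysteine in place of arginine 26 (H3R26C), and it was added to the cells' own H3 genes, which all groups kept. The 4 groups were H3WT with DMSO, H3WT with 5-Aza, H3R26C with DMSO and H3R26C with 5-Aza, with 1 library each. The treatment was 3 µM 5-Aza for 24 h, after which the medium was replaced, and the differentiated cells were dissociated for sequencing on day 28. The collection day of the DMSO cells is not stated in the sources used here, so treatment and time in culture cannot be told apart. The transgene is not among the 32285 genes counted, so the genotype labels could not be checked. With 1 library per group there is no replicate error: intervals are 95% counting intervals of the libraries sequenced, no test between conditions was made, and "rose" and "fell" mark ratios of at least 2-fold.

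5-Aza is built into nucleic acids and traps DNA methyltransferases, so that the methylation of newly made DNA is lost over rounds of replication. In C3H 10T1/2 cells it is the classical inducer of muscle, fat and cartilage fates. Arginine 26 of histone H3 lies beside lysine 27, the residue methylated by the Polycomb repressive complex PRC2. Loss of DNA methylation in mouse and human cells is also known to release transcripts of endogenous retroviruses that are sensed as foreign RNA, which leads to expression of interferon-stimulated genes.

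The interferon-stimulated genes were among the groups that moved most, and their promoters are shown here because the letters they share are those that the interferon-activated factor ISGF3 binds. The sequences are RefSeq stretches on GRCm38.p6, read 5′ to 3′ along the gene and upstream of the transcription start, and capitals mark TTTC and TTTC, or GAAA and GAAA, with any 2 bases between, which are the same motif on opposite strands. In Isg15 3 such matches overlap. The last match ends 56 bases before the start in Isg15, 75 in Ifit1, 112 in Ifit3 and 114 in Bst2. The 4 stretches lie at chr4:156200819-156200956 on the minus strand (Isg15), chr19:34640725-34640873 on the plus strand (Ifit1), chr19:34583313-34583476 on the plus strand (Ifit3) and chr8:71537527-71537662 on the minus strand (Bst2).
Isg15: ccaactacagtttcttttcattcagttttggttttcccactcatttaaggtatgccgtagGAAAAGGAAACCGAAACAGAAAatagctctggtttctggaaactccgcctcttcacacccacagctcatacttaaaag
Ifit1: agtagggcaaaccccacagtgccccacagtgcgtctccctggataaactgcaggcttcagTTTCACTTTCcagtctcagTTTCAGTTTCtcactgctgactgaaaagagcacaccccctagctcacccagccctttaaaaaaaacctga
Ifit3: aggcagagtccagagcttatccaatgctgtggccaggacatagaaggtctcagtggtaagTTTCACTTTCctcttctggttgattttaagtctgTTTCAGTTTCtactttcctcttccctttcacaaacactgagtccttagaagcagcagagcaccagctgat
Bst2: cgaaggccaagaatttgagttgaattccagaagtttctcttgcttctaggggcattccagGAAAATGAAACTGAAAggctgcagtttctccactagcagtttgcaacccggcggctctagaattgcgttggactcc
The stretch of Ifit3b has the same sequence as that of Ifit3, and their reads may be shared. On either strand of a window of 300 bases, from 250 bases before the start, these letters stood in 24 of the 51 listed interferon-stimulated genes with a window (47.1%), in 252 of 6918 genes that passed the expression minimum and had a window (3.64%) and in 1131 of all 32851 windows (3.44%). Of the 22 risen interferon-stimulated genes 14 had a window (63.6%), and 8 of the 14 held these letters. A match describes the letters and not binding.

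The kept cells held 84060490 UMIs with DMSO and 106935395 with 5-Aza, a median of 16598 and 13057 UMIs per cell. Levels are given as CPM, a gene's UMIs over the kept cells of a library scaled to a total of 1000000, and a log2 ratio is log2 of the CPM with 5-Aza plus 1 over that with DMSO plus 1, which understates the change of genes near 0. Among the 8646 genes whose mean over the H3R26C pair was 10 CPM or more, 331 rose (3.83% of those read) and 239 fell (2.76%), 126 and 26 of them by at least 4-fold. The median log2 ratio over all of them was -0.04, with quartiles of -0.29 and 0.21. As the minimum is on the mean of a pair, a gene near 0 in 1 library passes only if it is high in the other. Its call then follows from the filter. In the H3WT pair, 8511 genes passed, 138 rose (1.62%) and 17 fell (0.20%), with a median of 0.03. Over the nuclear chromosomes, the number of risen genes ran from 3 of 216 on chromosome 18 to 34 of 486 on chromosome 1. The barcodes that the muscle cut left out were rich in RNA of differentiated muscle, and 86 of the 331 risen genes were higher in them than in the kept cells while 245 were not. Among the 245, in cells thinned to equal depth, the 10% of 5-Aza cells richest in a gene held a median of 71.4% of its UMIs. A UMI of such a gene was found in a median of only 16.8% of the thinned 5-Aza cells. With so few UMIs, a small part of the cells holds most of them even where expression is even. The share under even expression was not computed, so the 71.4% does not show whether the rises were confined to few cells.

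**Figure D1:**
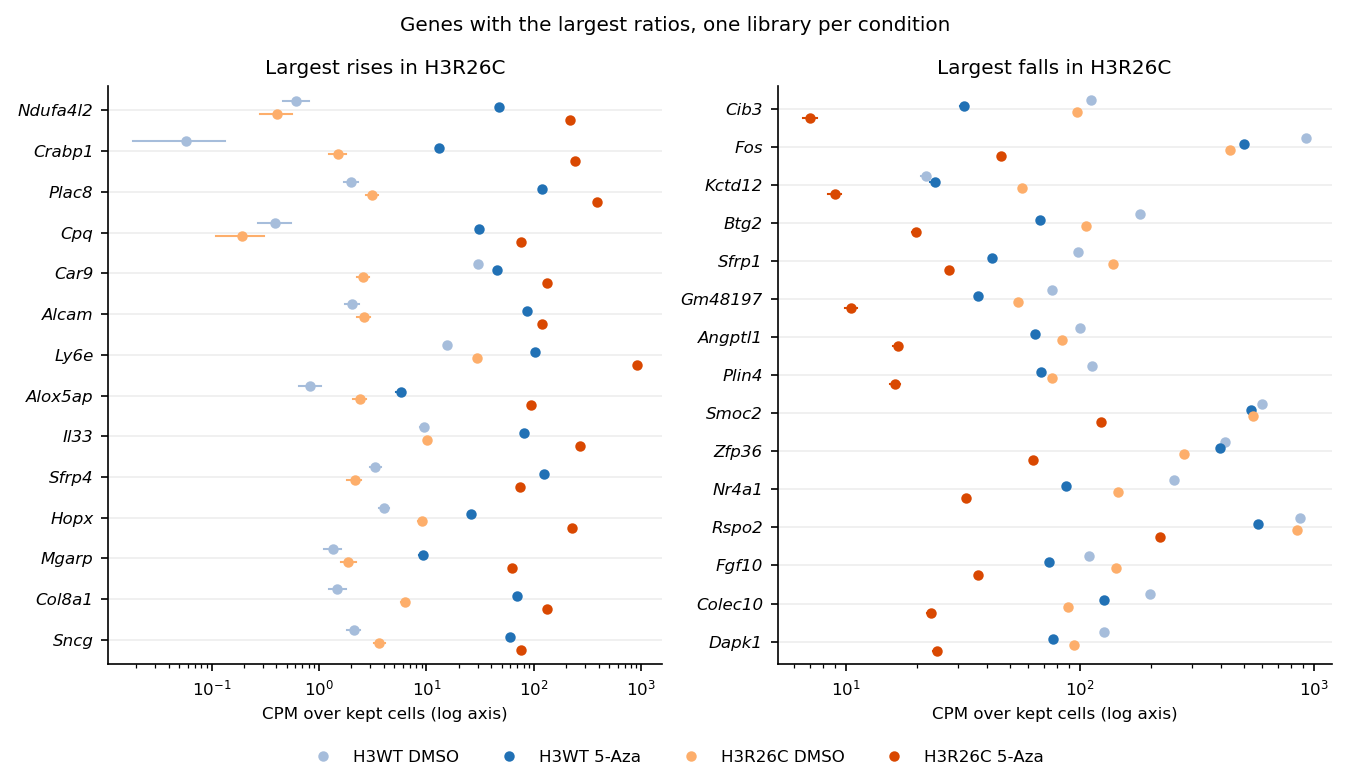
CPM over the kept cells (log axis) of 14 of the 15 genes with the largest rise and the 15 with the largest fall in H3R26C, in each of the 4 libraries, with exact Poisson intervals as lines where they exceed the points. Every gene on the left is higher with 5-Aza in both genotypes, with Ndufa4l2 at 0.404 and 214 CPM in the H3R26C pair and Car9 at 30.4 and 45.3 CPM in the H3WT pair. On the right, the H3R26C 5-Aza library is the lowest of the 4 for each gene, and Kctd12 is not lower with 5-Aza in H3WT.

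The largest rises joined a mitochondrial protein, a retinoid carrier, surface molecules of progenitors and secreted signals. Ndufa4l2, a mitochondrial protein induced by hypoxia (chr10:127514967-127517154), stood at 0.404 CPM with DMSO and 214 CPM with 5-Aza, a 530-fold rise (counting interval 379 to 766). Plac8, a small cysteine-rich protein, went from 3.13 to 385 CPM, and Cpq, a secreted carboxypeptidase, from 0.190 to 75.2 CPM. Both were also far higher with 5-Aza in H3WT, at 118 and 31.0 CPM.

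Crabp1, which carries retinoic acid within cells, went from 1.49 to 243 CPM. In cells thinned to 5000 UMIs, 13.4% of 5-Aza cells held a UMI of Crabp1, against 0.402% with DMSO, and the 10% of cells richest in it held 97.0% of its UMIs.

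Alcam, an adhesion molecule used as a marker of mesenchymal stem cells, went from 2.61 to 119 CPM and was nearly the same in H3WT, at 2.01 and 86.8 CPM. Hopx, a homeodomain protein of stem and progenitor cells, went from 9.03 to 228 CPM in H3R26C and from 4.03 to 25.7 CPM in H3WT. Il33, a nuclear cytokine that acts as an alarm signal when released, went from 10.1 to 269 CPM. Alox5ap, which presents arachidonate to 5-lipoxygenase in leukotriene synthesis, went from 2.39 to 93.3 CPM. The other risers of this group were Sfrp4 (2.14 to 74.4 CPM), a secreted Wnt antagonist, Col8a1 (6.27 to 131 CPM), a network collagen, and Sncg (3.65 to 75.4 CPM), a synuclein. For these 3 genes the log2 ratio was no larger in H3R26C, at 4.59, 4.19 and 4.04, than in H3WT, at 4.85, 4.82 and 4.30.

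Of the 62 interferon-stimulated genes measured, 40 passed the expression minimum, 22 rose and none fell by 2-fold, with a median log2 ratio of 1.15 against -0.04 over all genes that passed. Isg15, a ubiquitin-like modifier (chr4:156199424-156200818), went from 23 to 372 CPM. Ifi27l2a, an interferon-induced mitochondrial protein, went from 74.8 to 664 CPM, and Ifit1, which binds foreign RNA ends, from 12.4 to 107 CPM. Bst2, which tethers budding virions, went from 139 to 609 CPM, and Ifitm3, a membrane barrier to virus entry, from 640 to 1626 CPM. The promoters printed above were chosen among risen genes that hold the letters, by log2 ratio, so both traits were conditions of the choice. Their genes stood at log2 ratios of 3.96 for Isg15, 3.01 for Ifit1, 2.45 for Ifit3 and 2.12 for Bst2.

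The regulators, sensors and receptors of the pathway differed in their ratios. Irf7, the factor that amplifies interferon transcription, went from 4.65 to 50.3 CPM, and Usp18, which removes ISG15 and damps the receptor, from 2.74 to 32.7 CPM. Of the sensors of foreign RNA, Dhx58 went from 4.04 to 25.9 CPM and Ddx58 from 38.7 to 68.2 CPM, the latter short of 2-fold. Irf7, Usp18 and Dhx58 passed the minimum only through the 5-Aza library, so a rise was a condition of passing. The receptor chains did not pass 2-fold, Ifnar1 having the lowest ratio of the list at -0.20 and Ifnar2 standing at 0.76. No UMI of Ifnb1, Ifna2, Ifna4 or Ifnl3 was counted in any of the 4 libraries, and Ifng had 3 UMIs with 5-Aza. For the genes with no UMI, the 5-Aza library allows up to 0.0281 CPM.

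As a sum over the interferon-stimulated effectors, the rise was seen in most cells. A sum weighs abundant members most, so it does not give the spread of each gene. The part of RNA from outside the cells in this sum was not measured. In cells thinned to 5000 UMIs, the summed UMIs of the interferon-stimulated effectors had a median of 11 per cell with DMSO and 28 with 5-Aza. Of the 5-Aza cells, 64.5% (exact binomial interval 63.4% to 65.6%) lay above 22 UMIs, the 95th percentile of the DMSO cells, while 11.8% lay at or below the DMSO median. In H3WT the medians were 8 and 14, and 39.0% of 5-Aza cells passed their own DMSO percentile. Of the 29 listed genes that passed in both pairs, 21 had the higher log2 ratio, sign included, in H3R26C, and the H3WT median was 0.51. Over all genes that passed, the quartiles were -0.29 and 0.21 in H3R26C and -0.12 and 0.17 in H3WT. Ratios were thus wider in H3R26C over all genes. No such count over all genes is given either, so such counts are not read as particular to a list.

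Genes of antigen presentation and the Ly6 surface antigens, both of which interferon is known to induce, were raised beside them. Of 17 passing genes of MHC class I presentation, 7 rose and none fell by 2-fold, with a median of 0.69. The rises were mainly in heavy chains: H2-K1 went from 122 to 512 CPM, H2-D1 from 80.9 to 257 CPM, H2-Q4 from 79.7 to 442 CPM and H2-Q7 from 9.22 to 58.0 CPM. The heavy chains are near-identical copies, so how the counting split reads among them is uncertain. The light chain B2m stood at 603 and 716 CPM, and of the peptide supply only the immunoproteasome subunit Psmb8 rose, from 36.3 to 80.8 CPM. Erap1, which trims peptides, had the lowest ratio at -0.52.

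Ly6e (chr15:74955051-74959905), an interferon-inducible surface protein, went from 29.2 to 906 CPM, the largest rise of its family, and from 15.7 to 103 CPM in H3WT. After thinning it had a median of 0 UMIs per cell with DMSO and 3 with 5-Aza in H3R26C, and a UMI was found in 10.3% and 77.4% of cells. Ly6c2 rose from 40.1 to 187 CPM and Ly6a, the stem cell antigen Sca-1, from 667 to 1629 CPM, whereas Cd59a, an inhibitor of complement, had a log2 ratio of -0.26. Over the 5 passing members 3 rose, with a median of 1.29. Cells rich in both groups overlapped in part: of the 4805 5-Aza cells above the DMSO percentile for interferon-stimulated effectors, 47.6% were also above it for MHC class I presentation, against 36.0% of all 5-Aza cells.

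**Figure D2:**
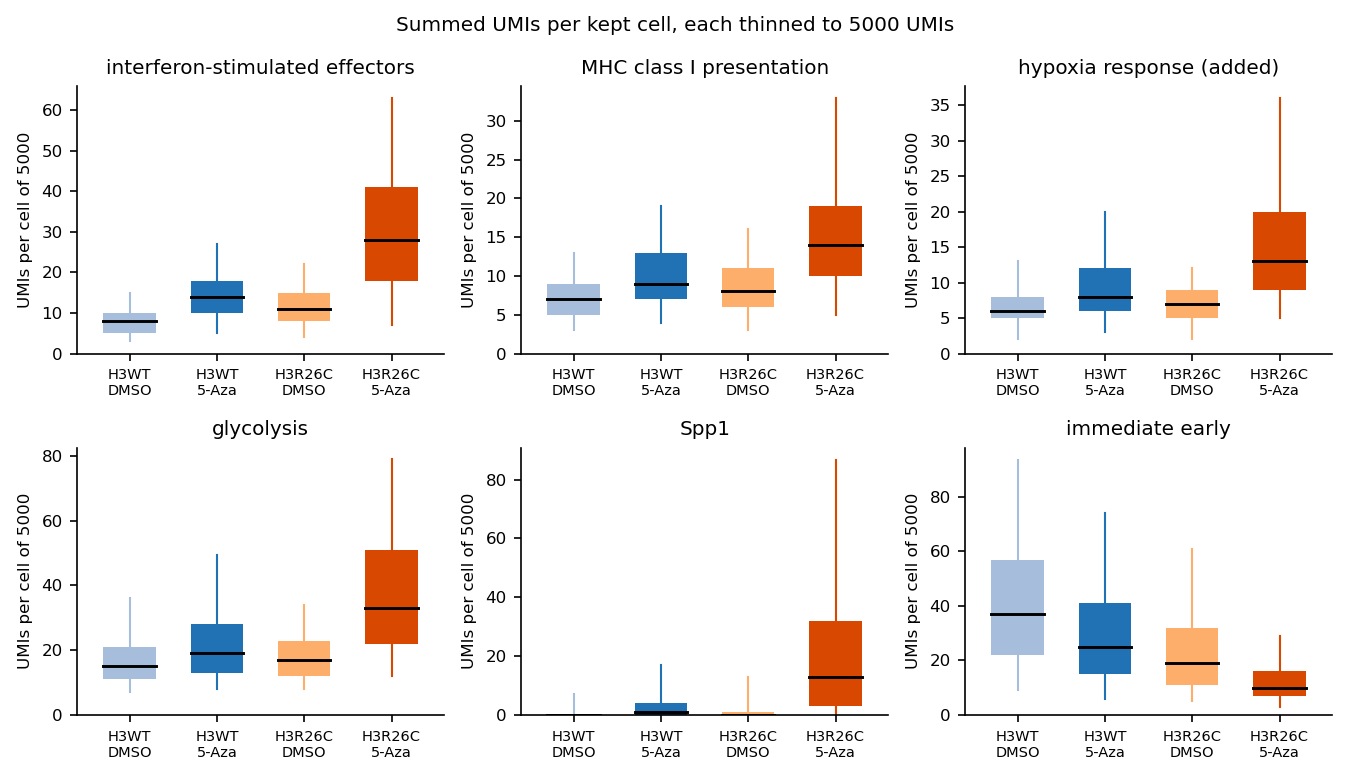
Summed UMIs per kept cell after thinning each cell to 5000 UMIs, for 6 sets in the 4 libraries, with the box from the first to the third quartile, the line at the median and whiskers from the 5th to the 95th percentile. In H3R26C the median goes from 11 to 28 UMIs for interferon-stimulated effectors, from 7 to 13 for the hypoxia response and from 0 to 13 for Spp1, and from 19 down to 10 for immediate early genes. The hypoxia list was chosen after values had been seen.

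A second set of rises was in genes that cells induce when oxygen is short. The list of 27 hypoxia response genes was chosen after values had been seen, so its count is a description only: of 24 that passed, 14 rose and 1 fell, with a median of 1.17. Car9, a carbonic anhydrase of hypoxic cells (chr4:43506966-43513729), went from 2.57 to 132 CPM, a 51.5-fold rise (45 to 59.1), whereas in H3WT it went from 30.4 to 45.3 CPM, 1.49-fold. Egln3, an oxygen-sensing prolyl hydroxylase, had no UMI with DMSO and 20.2 CPM with 5-Aza, at least 567-fold higher against a floor of 3 UMIs in that library. Ero1l, which drives disulfide formation, rose from 33.7 to 207 CPM, Ankrd37 from 3.69 to 28.8 CPM and Mgarp, a mitochondrial protein induced by hypoxia, from 1.88 to 62.6 CPM. Enzymes that hydroxylate collagen also rose, P4ha2 from 54.1 to 181 CPM and Plod2 from 45.5 to 177 CPM. The transcription factors of the response did not pass 2-fold, with log2 ratios of 0.18 for Hif1a and -0.78 for Epas1, and Pfkfb3, which sets the rate of glycolysis, fell from 22.3 to 9.06 CPM.

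Glycolysis, a pathway that hypoxia is known to raise, gave the same picture in part. Of 15 passing genes 9 rose and 1 fell, with a median of 1.11 against 0.30 in H3WT. The ratio, sign included, was higher in H3R26C for 12 of the 15, in a pair whose ratios were wider over all genes. Pgk1, which makes the first ATP of the pathway, went from 324 to 909 CPM, Gpi1 from 229 to 632 CPM, Pgam1 from 433 to 1108 CPM and Ldha, which makes lactate, from 704 to 1584 CPM. The glucose carrier Slc2a1, which both lists hold, went from 21.5 to 59.6 CPM. Eno3, the muscle enolase, had the highest ratio of the list, from 11.5 to 78.4 CPM, and stood at 956 CPM in the left-out muscle barcodes. Ldhb, the isoform that favours the return of lactate to pyruvate, fell from 111 to 47.2 CPM.

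Muscle uses both sets. Of the 15 passing glycolysis genes 5 were no higher in the left-out muscle barcodes than in the kept cells, among them 2 of the 9 that rose, and of the 24 hypoxia genes 15 were no higher, among them 7 of the 14 that rose. In an alternative chosen after the data were seen, the profile of those barcodes was taken off at a share of 0.935% of the kept UMIs, set by the 6 contractile genes, which also set the split of the barcodes, so the low share follows in part from the cut. It left 8 glycolysis and 13 hypoxia genes past 2-fold. With the profile of the barcodes below the cell filter the share was 3.41% and the numbers were 8 and 12. The part of muscle RNA in these rises was not tested. The glycolysis list summed to 3825 CPM with DMSO and 8014 CPM with 5-Aza. In thinned cells its sum had medians of 17 and 33 UMIs, and 48.2% of 5-Aza cells passed the DMSO percentile of 34, against 13.2% passing their own in H3WT. Of the cells above the percentile for interferon-stimulated effectors, 48.7% were above it for hypoxia genes, against 52.8% among all 5-Aza cells, and 85.9% of 5-Aza cells were above the percentile for at least 1 of the 2 sets. These shares also rest on a hypoxia list chosen after values had been seen.

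**Figure D3:**
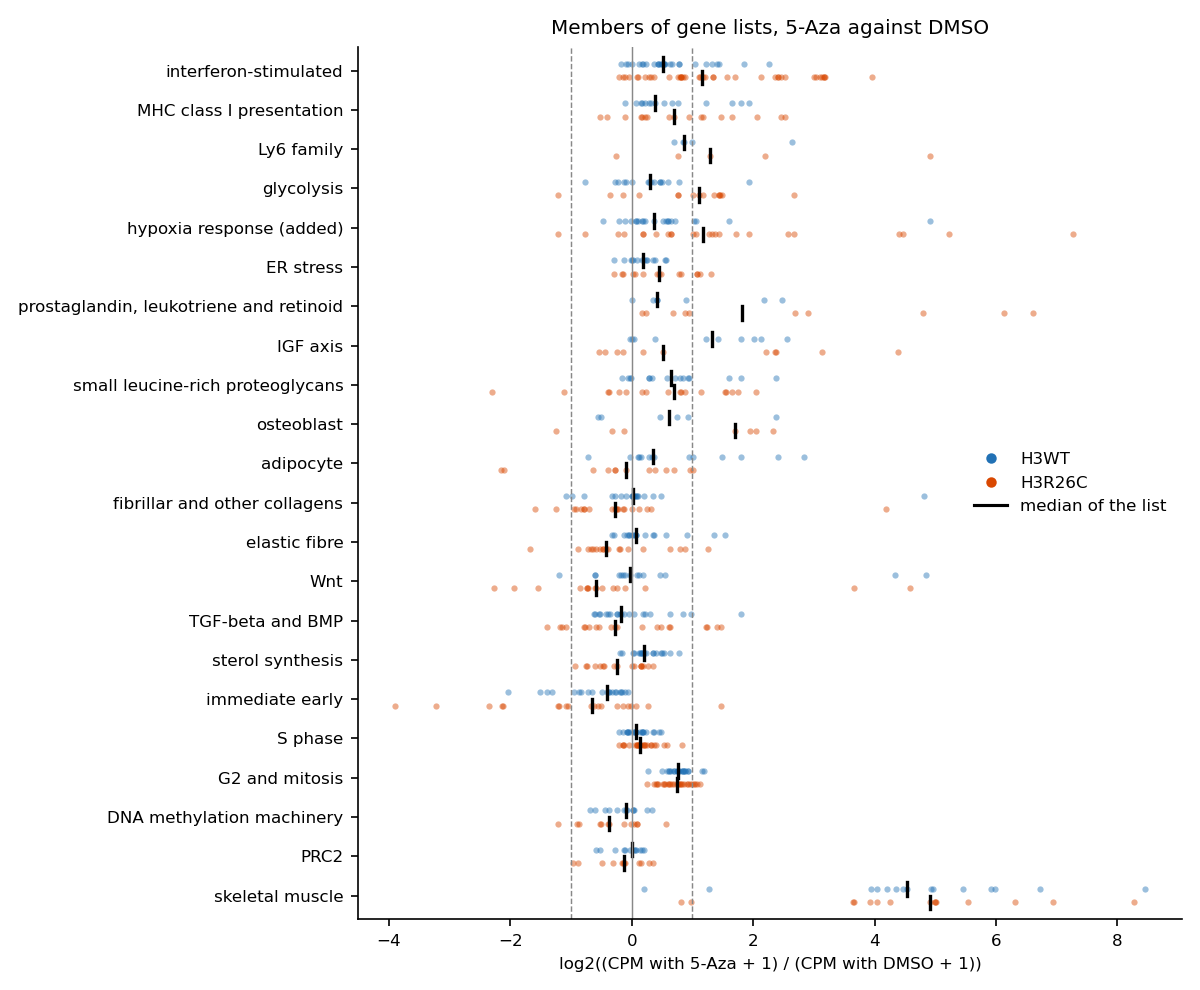
Log2 ratio of 5-Aza to DMSO (x axis) for each member that passed the expression minimum in 22 gene lists, H3WT above and H3R26C below within each list, with the median as a black line and 2-fold as dashed lines. The interferon-stimulated, glycolysis and hypoxia medians are 1.15, 1.11 and 1.17 in H3R26C and 0.51, 0.30 and 0.37 in H3WT, whereas the G2 and mitosis medians, 0.75 and 0.77, are nearly equal. The hypoxia list was chosen after values had been seen, so its medians describe the choice as well as the response.

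Spp1, which encodes osteopontin, a secreted ligand of integrins and CD44 (chr5:104435118-104441050), was among the most abundant risers. It went from 476 to 4998 CPM, a 10.5-fold rise (10.4 to 10.6), and from 275 to 858 CPM in H3WT, 3.12-fold. After thinning, the median cell held 0 UMIs with DMSO and 13 with 5-Aza, a UMI was found in 28.8% and 91.1% of cells, and 49.9% of 5-Aza cells passed the DMSO 95th percentile of 13. Its log2 ratio of 3.39 became 4.09 among cells low in cell cycle genes and 4.05 among cells of 8000 to 20000 UMIs. Of its receptors, Cd44 rose from 24.1 to 58.0 CPM, and the integrin chains that passed did not reach 2-fold, the lowest being Itga5 at -0.47, so that 2 of the 6 passing genes of the list rose, with a median of -0.10.

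Of the osteoblast list, 4 of the 7 passing genes rose and 1 fell, with a median of 1.71. Enpp1, which makes pyrophosphate, went from 11.6 to 62.0 CPM, Ank, which exports it, from 62.8 to 207 CPM, and Mgp, the matrix Gla protein that keeps cartilage and vessels free of mineral, from 352 to 1453 CPM. Phex, a protease of bone cells that acts on phosphate balance, fell from 246 to 103 CPM, and Runx2, the master factor of osteoblasts, had a log2 ratio of -0.33. Among the lipid mediator and retinoid genes, 5 of 10 rose and none fell by 2-fold, with a median of 1.82, including Crabp2 (12.4 to 99.3 CPM) and the prostaglandin F receptor Ptgfr (6.73 to 48.8 CPM). Ptgfr passed the minimum only through the 5-Aza library, so a rise was a condition of passing. At a minimum mean of 1 CPM the median of this list was 0.95. Rarres2, which encodes chemerin, was the lowest at 0.17.

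In the extracellular matrix, the lists differed in how many genes were called, beside 3.83% risen and 2.76% fallen of all genes that passed. Lumican (Lum), which spaces collagen fibrils, went from 354 to 1023 CPM and dermatopontin (Dpt) from 16.5 to 54.3 CPM, and 6 of 18 passing genes of the small proteoglycan list rose and 2 fell, with a median of 0.69 against 0.64 in H3WT. Tnxb, the tenascin whose loss makes skin hyperelastic, fell from 46.6 to 8.62 CPM in H3R26C and stood at 38.4 and 46.9 CPM in H3WT. Of the main fibrillar collagens, Col1a1 stood at 3194 and 3191 CPM, Col1a2 at 2390 and 1971 CPM and Col3a1 at 2367 and 2951 CPM, and Col27a1 fell from 17.6 to 5.17 CPM, in a list of 20 of which 1 rose and 2 fell, with a median of -0.27. Of 19 elastic fibre genes 1 rose and 1 fell, with a median of -0.43: Efemp1, a fibulin, went from 87.9 to 212 CPM, Mfap5, a microfibril protein, from 132 to 40.7 CPM, and elastin itself (Eln) from 126 to 68.2 CPM. Of 18 matrix proteases and inhibitors 1 rose, Timp1, from 113 to 329 CPM, and 1 fell, Mmp9, from 17.6 to 3.91 CPM, with a median of -0.11 (0.27 as the mean of per-cell CPM). The fall of Mmp9 was not kept among cells low in cell cycle genes, where its log2 ratio was -0.26.

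Among the largest falls were immediate early genes, which respond within minutes to growth factors or handling. Fos (chr12:85473890-85477273) went from 438 to 45.9 CPM, a log2 ratio of -3.23, and Fosb, its close relative, from 41.3 to 1.84 CPM. Btg2, an inhibitor of proliferation, went from 106 to 19.9 CPM, Nr4a1, an orphan nuclear receptor, from 145 to 32.6 CPM, and Zfp36, which binds mRNAs of cytokines for decay, from 278 to 62.6 CPM. Fosl1, a further AP-1 member, rose from 21.5 to 61.3 CPM. Of 20 that passed, 9 fell and 1 rose, with a median of -0.65. In H3WT the median was -0.42 and Zfp36 stood at 415 and 397 CPM. These genes are also known to be induced while cells are dissociated, and the part of that step in their level was not tested. Of 9 heat shock genes none reached 2-fold, from Hspa1b at -0.55 to Hsp90ab1 at 0.19, with a median of -0.08. Beside this, 3.83% of all genes that passed rose and 2.76% fell.

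The other largest falls encode secreted and intracellular proteins. Rspo2, which strengthens Wnt signals, went from 845 to 220 CPM, Fgf10, a growth factor of limb and fat mesenchyme, from 143 to 36.6 CPM, and Sfrp1, a Wnt antagonist, from 138 to 27.6 CPM. Smoc2, a secreted calcium-binding matrix protein, went from 550 to 123 CPM, Angptl1 from 83.9 to 16.6 CPM and the collectin Colec10 from 89.0 to 23 CPM. Within cells, Cib3, a calcium and integrin binding protein, went from 97.4 to 7.01 CPM, Kctd12, a subunit of GABA-B receptors, from 56.2 to 8.92 CPM, Plin4, a coat protein of lipid droplets, from 75.8 to 16.2 CPM, Dapk1, a death-associated kinase, from 93.8 to 24.5 CPM and the unnamed transcript Gm48197 from 54.5 to 10.5 CPM. Over the Wnt list 2 of 16 rose and 3 fell, with a median of -0.59 against -0.03 in H3WT. None of the 15 genes that passed in both pairs had the higher ratio, sign included, in H3R26C. No such count over all genes is given, so this one is not read as particular to the list. Of 21 TGF-beta and BMP genes 4 rose, among them the antagonist Fst (32.5 to 91.7 CPM), and 4 fell, among them the inhibitor Smad6 (25.4 to 9.09 CPM), with a median of -0.28.

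Insulin-like growth factor binding proteins hold the ligand outside the cell, and no passing gene of their axis fell by 2-fold in either pair. In H3WT 6 of the 10 passing genes rose. Igfbp6 rose from 0.809 to 36.6 CPM, Igfbp4 from 189 to 877 CPM and Igfbp7 from 153 to 799 CPM, and 5 of the 11 genes of the axis rose and none fell by 2-fold, with a median of 0.51 against 1.32 in H3WT. Of the 11, 5 were no higher in the left-out muscle barcodes than in the kept cells, among them 3 of the 5 that rose. Igfbp5 stood at 1134 and 778 CPM in H3R26C, a log2 ratio of -0.54 that was short of the call, and at 354 and 829 CPM in H3WT. Of 15 CCN and Yap target genes 2 rose, both higher in the left-out muscle barcodes, and 1 fell, with a median of -0.22. The fall was Ccn3, a matricellular protein, from 831 to 296 CPM, and the largest rise was Ankrd1, from 0.238 to 35.5 CPM, which stood at 1552 CPM in the left-out muscle barcodes.

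Fat genes were called in both directions in H3R26C, where 3.83% of all genes that passed rose and 2.76% fell. In H3R26C 1 of 13 passing adipocyte genes rose (Lpl, the lipase that releases fatty acids from lipoproteins, 37.4 to 76.1 CPM) and 2 fell, with a median of -0.09 that was 0.02 as the mean of per-cell CPM, 0.13 among cells of 8000 to 20000 UMIs and 0.70 at a minimum mean of 50 CPM. Lpl lay at the edge of the call, at a log2 ratio of 1.01, and fell short of it with no muscle cut, at 0.98. In H3WT 5 of 14 adipocyte genes rose, with a median of 0.35. Cfd, which encodes the fat cell protease adipsin, fell from 32.9 to 6.85 CPM in H3R26C and rose from 5.99 to 35.9 CPM in H3WT. It was the only gene that passed in both pairs and was called in opposite directions, and after thinning a UMI of it was found in 0.465% and 0.255% of H3R26C cells, so its level rested on few cells. Among cells of 8000 to 20000 UMIs its H3R26C log2 ratio was -0.93, short of the call.

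Cell cycle genes leaned the same way in both genotypes. Over all genes that passed in H3R26C, 3.83% rose and 2.76% fell. Of 28 G2 and mitosis genes 4 rose and none fell by 2-fold, with a median of 0.75, the highest being Cenpf, a kinetochore protein, at 44.2 and 97.8 CPM. The 25 S phase genes had no 2-fold change, from Pcna at -0.20 to Rrm2 at 0.83, with a median of 0.14. After thinning, 8.77% of 5-Aza cells held more than 28 mitotic UMIs, the DMSO 95th percentile, and the median cell held 1. Among cells of 8000 to 20000 UMIs the mitotic median was 1.77 and Rrm2 stood at 2.18. Of 18 CDK inhibitor and p53 target genes 1 rose (Perp, a junction protein, 2.88 to 20.8 CPM) and 2 fell (Btg2 and the CDK inhibitor Cdkn1b, 146 to 60.3 CPM), with a median of 0.01.

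Calls were rare among genes of the DNA methylation machinery and PRC2, as over all genes that passed, of which 3.83% rose and 2.76% fell. The genes of DNA methylation leaned down. Of the DNA methyltransferases, Dnmt1, which copies methylation at replication, stood at 51.7 and 47.3 CPM and Dnmt3a, which sets it anew, at 37.3 and 19.5 CPM, a log2 ratio of -0.90. Dnmt3b stood at 3.35 and 1.48 CPM and the cofactor Dnmt3l at 0.107 and 1.15 CPM, both under the expression minimum. Uhrf1, which leads Dnmt1 to new DNA, had a log2 ratio of 0.08 and Uhrf2 of 0.04, although Uhrf1 stood at 1.54 among cells of 8000 to 20000 UMIs. Over 13 genes of DNA methylation none rose and 1 fell, the demethylating enzyme Tet1 (15.1 to 5.93 CPM), and the reader Mbd2 was the highest at 0.57. Their median of -0.37 lay below the lower quartile of all genes that passed, -0.29, and 4 of the 13 were above 0. No PRC2 gene was called among 12, with a median of -0.13: Ezh2 stood at 27.2 and 33.4 CPM, Ezh1 at 37.3 and 33.4 CPM, Eed at 24.1 and 31.1 CPM, Suz12 at 45 and 48.8 CPM, Rbbp4 at 142 and 131 CPM and Rbbp7 at 248 and 224 CPM. The accessory subunit Jarid2 was the lowest, from 16.9 to 8.14 CPM, a log2 ratio of -0.97.

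Genes that DNA methylation is known to keep silent were detected at low levels after 5-Aza. Of 39 measured germline genes, 29 had no UMI with DMSO and 7 had none with 5-Aza, and their sum went from 5.35 to 109 CPM. In H3WT 25 had no UMI with DMSO and 6 had none with 5-Aza, and the sum went from 3.26 to 49.0 CPM. The H3R26C 5-Aza library held more UMIs than its DMSO library, and no such count over all genes is given, so these counts are not read as particular to the list. Rhox5, a homeobox gene of the X chromosome that responds to loss of methylation, was the one that passed the minimum and went from 0.845 to 53 CPM, with 56.4 CPM in the left-out muscle barcodes. It passed only through the 5-Aza library. Tex19.1 and Tex19.2, germline genes that restrain retrotransposons, had no UMI with DMSO and 11.3 and 15 CPM with 5-Aza, at least 317-fold and 420-fold higher against the floor of 3 UMIs. In H3WT, Tex19.2 stood at 0.182 CPM with 5-Aza. Most imprinted genes lay short of 2-fold, where 3.83% of all genes that passed rose and 2.76% fell. Of 16 that passed 1 rose and 1 fell, with a median of -0.27 and 4 above 0. H19 rose from 79.5 to 171 CPM, with 3230 CPM in the left-out muscle barcodes. Its log2 ratio was 0.81 once muscle RNA was taken off. Impact fell from 90.6 to 43.8 CPM.

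Over all genes, 39 stood below 1 CPM with DMSO and at 10 CPM or more with 5-Aza without being higher in the left-out muscle barcodes. Of these, 6 had no UMI with DMSO and 3 were on the X chromosome. In the H3WT 5-Aza library 29 of them reached 1 CPM and 4 reached 10 CPM. As they were chosen for 10 CPM or more in H3R26C, a lower count in H3WT follows in part from the choice. The number of genes below 1 CPM with DMSO and the converse count of genes lost with 5-Aza are not given. They include Ndufa4l2 and Cpq, Cd34, a surface sialomucin of progenitors (0.595 to 16.7 CPM), and Col14a1, a fibril-associated collagen (0.238 to 16.1 CPM).

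The cells carried part of the listed markers of mesenchymal progenitors, the type the labels give: Pdgfra stood at 126 and 171 CPM, Prrx1 at 677 and 546 CPM, Thy1 at 37.6 and 51.9 CPM and Itgb1 at 386 and 402 CPM. Of the 27 genes of that list 19 passed, while 3 had no UMI with DMSO and 1 had none with 5-Aza. Of the 19, 5 rose and none fell by 2-fold, and 11 were above 0. Their median was 0.44, the highest being Plac8 and the lowest Pdgfrb at -0.72. No endothelial, blood or epithelial marker passed the expression minimum, and their lists summed to 12.0, 15.8 and 18.2 CPM with 5-Aza, against 6.44, 5.15 and 0.357 CPM with DMSO. The epithelial sum was mainly Krt8, a keratin, at 15.2 CPM. The chondrocyte factor Sox9 stood at 310 and 193 CPM and the cartilage collagen Col2a1 fell from 42.1 to 17.1 CPM, the 2 chondrocyte genes of 12 that passed, with a median of -0.97. Of 10 smooth muscle genes 2 rose, Myl9 (7.40 to 17.2 CPM) and Tpm2 (123 to 254 CPM), both higher in the left-out muscle barcodes, at 55.6 and 2628 CPM, and none fell by 2-fold, from Tpm1 at -0.64 upward, with a median of 0.26. The 2 neural and glial genes that passed, of 8, did not reach 2-fold, with a median of 0.55.

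Skeletal muscle genes were raised in the kept cells too. Of 15 that passed 13 rose, with a median of 4.91, and all 15 were higher in the left-out muscle barcodes. Ttn, the giant spring of the sarcomere, stood at 0.059 and 327 CPM and Mef2c, the lowest of the list, at 22.3 and 39.8 CPM. Genes as low with DMSO as Ttn passed the minimum only through the 5-Aza library, so their calls follow from the filter. The muscle cut left out 170 of 7619 5-Aza barcodes (2.23%, exact binomial interval 1.91% to 2.59%) and none of 4727 DMSO barcodes. Of the kept 5-Aza cells 91.4% still held a UMI of the 6 contractile genes, against 2.60% with DMSO, at 363 and 1.70 CPM in sum. The highest kept 5-Aza cell had 0.994% of its UMIs in the 6 genes, the lowest left out had 1.02%, and 57 kept cells lay between 0.5% and 1%. Free RNA from muscle and muscle RNA made by the cells themselves cannot be told apart from these counts, and the share of cells with a UMI that free RNA gives was not measured for the other genes, since no cell type known to lack them was at hand.

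The remaining lists gave a mixed picture, beside 3.83% risen and 2.76% fallen of all genes that passed. Of 15 endoplasmic reticulum stress genes 4 rose and none fell by 2-fold, with a median of 0.46, from Atf4 at -0.30 to Trib3 (6.28 to 17 CPM). Of the 15, 6 were no higher in the left-out muscle barcodes than in the kept cells, among them 2 of the 4 that rose. Hsp90b1, a chaperone of the reticulum, rose from 631 to 1335 CPM. Of 7 Hmga and oncofetal genes 3 rose, with a median of 0.51, including the chromatin proteins Hmga2 (20.1 to 73.8 CPM) and Hmga1 (56.0 to 124 CPM), while Dlk1 stood at -0.01. Of the 7, 5 were no higher in the left-out muscle barcodes, among them 2 of the 3 that rose. Of 10 complement genes 2 rose, Clu (149 to 511 CPM) and Serping1 (19.8 to 60.2 CPM), and 1 fell, Cfd, with a median of -0.01 (0.03 after median-ratio scaling) against 0.86 in H3WT.

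Over all genes that passed in H3R26C, 3.83% rose and 2.76% fell, so few or no calls in lists of this size are not read as particular to them. None of 17 sterol synthesis genes reached 2-fold, the highest being Cyp51 at 0.35, with a median of -0.25 against 0.20 in H3WT. None of the 17 had the higher ratio, sign included, in H3R26C. No such count over all genes is given, so this one is not read as particular to the list. Of 12 Nrf2 targets none rose by 2-fold and 2 fell, Gsta4 (265 to 95 CPM) and the glutathione transferase Mgst1 (32.9 to 9.27 CPM), with a median of -0.49 and Akr1b8 the highest at 0.77. Of 19 lysosome genes 1 rose, Gpnmb, a membrane glycoprotein (3.10 to 28.4 CPM), and none fell by 2-fold, with a median of 0.03. Of 9 chemokines 1 fell, Cxcl5 (34.4 to 16.5 CPM), with a median of -0.73 that became 0.18 among cells low in cell cycle genes. In the list of 10 replication-dependent histones 3 fell, the lowest being Hist1h2bc (53.8 to 18.3 CPM) and the highest Hist1h2ae at 0.31, with a median of -0.48. None of the 6 Notch genes (from Notch1 at -0.40 to Hes1 at 0.99), the 4 Hox genes (Hoxa2 at -0.73 to Hoxa3 at 0.27) or the 7 nuclear-retained RNAs (Kcnq1ot1 at -0.68 to Gm26917 at 0.61) reached 2-fold, with medians of -0.11, -0.13 and 0.20. Ccl9, the highest chemokine, stood at 0.44.

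**Figure D4:**
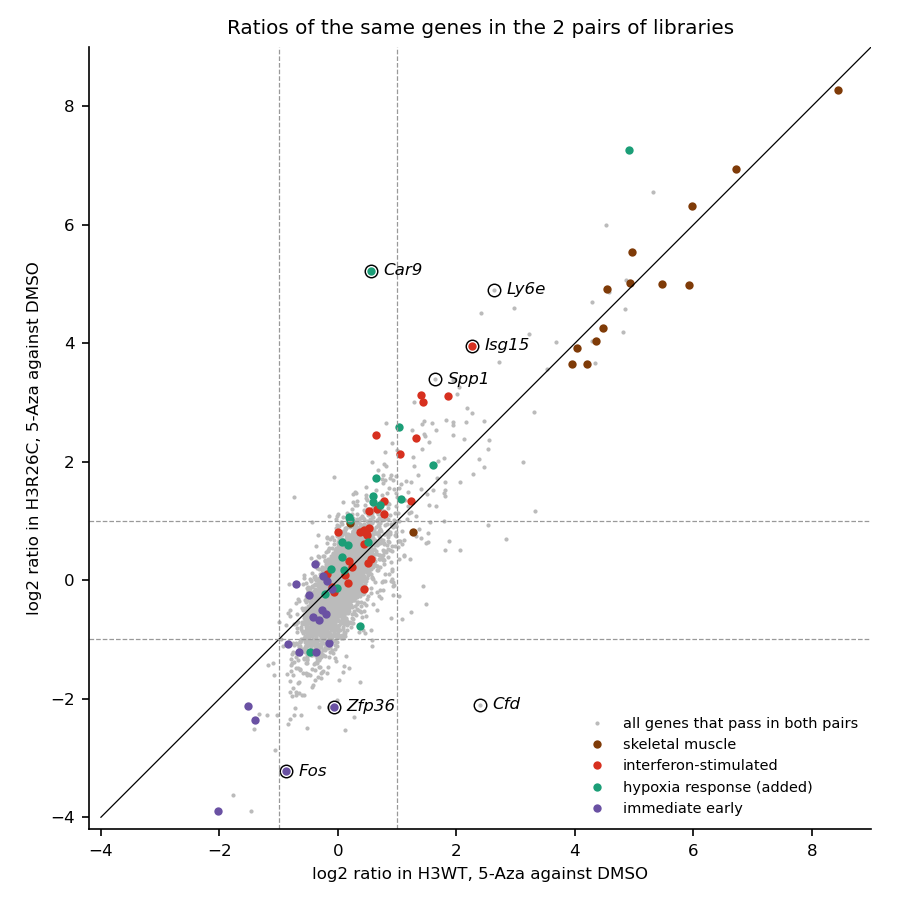
Log2 ratio of 5-Aza to DMSO in H3WT (x axis) against that in H3R26C (y axis) for the 8281 genes that passed in both pairs, with 4 lists in colour, the diagonal as a solid line and 2-fold as dashed lines. Interferon-stimulated and hypoxia genes lie mostly above the diagonal and skeletal muscle genes along it. The hypoxia list was chosen after values had been seen, so its place describes the choice as well as the response. Cfd is called in opposite directions, at -2.11 in H3R26C and 2.40 in H3WT.

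The 2 pairs of libraries share no library, so the responses could be set side by side, but with 1 library a group their difference could not be tested. Among the 8281 genes that passed in both, 216 rose in H3R26C and 132 in H3WT, and 102 rose in both, which is 47.2% of the first and 77.3% of the second. For falls the numbers were 231 and 13, and all 13 H3WT genes, or 5.63% of the H3R26C ones, were shared. Across genes, which are not independent replicates, Pearson's r of the ratios was 0.81 and Spearman's rho 0.71. Of all 331 risen H3R26C genes 216 passed in both pairs, against 231 of the 239 fallen, so the overlap of rises leaves out more genes. The comparison holds 15 skeletal muscle genes, of which 13 rose in H3R26C and 14 in H3WT. No value without them is given. Of the 216 risen genes 181 had the larger ratio in H3R26C, with medians of 1.48 and 0.94, and 211 were above 0 in H3WT. Of the 231 fallen genes 220 were below 0 in H3WT, where their median was -0.42 against -1.23. Genes chosen for a large ratio in H3R26C tend to lie nearer to 0 in another pair for that reason alone, so these medians describe the choice as well as the response.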

How the data were processed

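The authors made the deposited counts, whole UMI counts per gene and barcode without normalization, with Cell Ranger (6.1.0 per the file headers) on mm10, and their processing notes also name Seurat 4. From these counts, a sum per gene over the kept cells of each library was scaled to CPM (numpy 2.4.6, pandas 2.3.3, scipy 1.17.1 and matplotlib 3.10.9 in Python 3.11.15). Genes were read where their mean over the pair reached 10 CPM, a pseudocount of 1 CPM was added, and a ratio of at least 2-fold was called. Intervals are exact Poisson for CPM and exact binomial for shares and for the split of a gene's UMIs between libraries, and they cover counting error only. Per-cell values used cells thinned to 5000 UMIs with a fixed seed. The arithmetic was tested on simulated data.

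No doublets were removed, and the H3R26C libraries shared 48 barcodes among kept cells. Gene positions came from GENCODE M21, matched by identifier for 99.6% of genes. Symbols that 2 genes share were left out of the lists.

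Named genes were the 15 with the highest and the 15 with the lowest ratio among genes that reached 50 CPM in 1 of the libraries and had no higher CPM in the left-out muscle barcodes, the highest and lowest of each list with at least 4 passing members, and the osteopontin, methyltransferase and PRC2 core genes. A few genes that this rule names are not reported here. Further members were named to illustrate a list after their values were seen. The members, the 44 lists and the rule were chosen with earlier results of these data known. A comparison of CpG content was void, since a promoter window was at hand for only 175 of the 245 risen genes not higher in the left-out muscle barcodes (71.4%). Alternatives changed the scaling, pseudocount, expression minimum, cell filter, muscle cut, depth and cell cycle.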

Additional observations from a re-analysis of the deposited data

Results flagged for a closer look

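For 5 named genes that fell in H3R26C, the H3WT log2 ratio was above 0 with a counting interval that excludes 0. That interval covers counting error only, and of the 5 only Cfd reached 2-fold in H3WT. The H3WT ratio of Kctd12 lay within the quartiles of all H3WT genes, -0.12 and 0.17. With 1 library a group the difference between genotypes was not tested. Kctd12, the GABA-B receptor subunit, had log2 ratios of -2.53 in H3R26C and 0.12 in H3WT. Tnxb, the tenascin, had -2.31 and 0.28. Ccn3, the matricellular protein, had -1.48 and 0.19, and 60.7% and 42.9% of thinned H3R26C cells held a UMI of it. Mgst1, the glutathione transferase, had -1.72 and 0.38. Cfd, the adipsin gene, had -2.11 and 2.40.

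Muscle RNA appeared in barcodes outside the comparison. The muscle cut left out 170 barcodes of H3R26C with 5-Aza and none with DMSO. Below the cell filter, the 6 contractile genes stood at 10646 CPM with 5-Aza and 0.990 CPM with DMSO, and 1368 of 4491 barcodes (30.5%) against none of 1813 held at least 1% of their UMIs in them. The part of these barcodes in the values of the kept cells was not tested.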

How the results depend on the processing

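Over 14 alternatives, including 2 chosen after seeing the data, none of the 67 called genes among the 109 named ones changed sign, and 58 of them stayed past 2-fold in every one. The alternatives of pseudocount and expression minimum could not change the sign of a gene's ratio. The named genes also include those with the most extreme ratios, so their kept signs follow in part from the choice. The others, Lpl, Myl9, Trib3, H19, Impact, Tet1, Cxcl5, Mmp9 and Cfd, fell short of 2-fold under some alternative. A minimum mean of 1 CPM gave 935 risen and 380 fallen genes and one of 50 CPM gave 102 and 91. A pseudocount of 5 CPM gave 159 fallen genes. The other counts lay within 1.5 times of 331 and 239, from 271 to 407 risen and from 198 to 269 fallen, and 320 and 245 after muscle RNA was taken off. The share of risen among called genes was 58.1%, and ran from 52.85% at the minimum of 50 CPM to 71.1% at that of 1 CPM. The median changed sign under some alternative in 12 of 39 lists, the largest of these at 0.73 in size (chemokines). For Ndufa4l2, Cpq and other genes near 0 with DMSO, the ratio moved with the pseudocount. With 1 library a side, no replicate could be left out. No paired analysis was possible because no group holds more than 1 library. Genes under a mean of 10 CPM were left out of the calls by choice. A floor of 3 UMIs was 0.0357 CPM with DMSO and 0.0281 CPM with 5-Aza in H3R26C. The lack of replicates limits every comparison. The causes of these shifts were not tested.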
